A study of Mus musculus with 30 samples.

Results

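Mouse embryonic stem cells (ESCs) of a clone depleted of the phosphatase Ppm1g were compared with cells of a control clone, both after 5 days without doxycycline (Dox). The comparison takes 6 of 30 Illumina WG-8 arrays, chosen by their labels alone: 3 of Ppm1g_R without Dox and 3 of Control_R without Dox. Both are rescue clones of the ESC line Ainv15, which carries the Dox-responsive transactivator rtTA. In Ppm1g_R an shRNA acts on the endogenous Ppm1g mRNA at all times, and Dox at 1 μg/ml turns on an shRNA-resistant Ppm1g cDNA together with eGFP. The cells without Dox therefore lack the rescue copy. Control_R, labelled only as control with the strain background 129P2/OlaHsd, went through the same withdrawal. Cells were kept on embryonic fibroblasts with serum and LIF and were then grown without feeders for the arrays. Several independent clones were derived per gene, and the sources used here do not say which of them was arrayed. Nothing in the labels says that the 3 arrays of a condition came from separate cultures. The p-values therefore measure only the spread between arrays of the same condition, pooled over all 10 conditions. The number of arrays per condition limits the precision.

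The clones lie in different sets of arrays, set apart by signal level. On the arrays of Ppm1g_R without Dox the dimmest signal still detected was 35.4 to 53.3, and on those of Control_R without Dox it was 12.9 to 17.5. Chek1_R and Ppp2r1b_R, depleted of other phosphoregulators, fall with Ppm1g_R in the first set (27.8 to 58.1 over 18 arrays), and Bub1b_R falls with Control_R in the other (12.9 to 20.9 over 12 arrays). Clone and array set cannot be told apart in the comparison itself. For this reason the values of the same clones with Dox, of Chek1_R and Ppp2r1b_R without Dox and of Bub1b_R are given beside the results. Between 12198 and 12798 probes were detected on the Ppm1g_R arrays and 13325 to 13685 on the Control_R arrays. Replicates correlated with r of 0.9935 to 0.9943 and 0.9936 to 0.9949. These are bulk samples, in which fewer cells of a type and less RNA per cell cannot be told apart.

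PPM1G belongs to the metal-dependent PPM family of serine/threonine phosphatases and is mostly nuclear. It is known for acting on spliceosome assembly, on the exchange of histone H2A-H2B dimers and on the release of the elongation factor P-TEFb from its inhibitory 7SK complex. Mouse ESCs in LIF express Pou5f1, Sox2 and Nanog. On leaving this state they can turn on epiblast genes such as Fgf5, and then genes of the primitive streak such as T (Brachyury), which mark the first mesoderm and endoderm.

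The design rests on a 21-base stretch, shown here because it separates the depleted mRNA from the rescue copy. The first line is the shRNA's sequence and the next the same stretch of the rescue cDNA, as read from the study's lists of designed oligos, with the differing bases in capitals.
Ppm1g shRNA: gccttgtaCtgTgcCaaatat
rescue cDNA: gccttgtaTtgCgcTaaatat
Counted from 1 at the 5′ end of the shRNA's sequence, the differences are C9T, T12C and C15T.

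The level of Ppm1g followed the labels. Whether its 1 probe also reads the rescue cDNA was not analysed here, which limits what its level with Dox means. The probe had normalized log2 intensities of 8.61, 8.40 and 8.59 in Ppm1g_R without Dox and 10.19, 10.26 and 10.37 in Control_R without Dox. All 3 depleted arrays lay below all 3 control arrays, a difference of -1.74 (SE 0.10, adjusted p = 5.7e-13), or 3.35-fold. With Dox the clones were closer, at means of 9.78 ± 0.04 and 10.11 ± 0.12 (SD, n = 3 each), a difference of -0.33 (SE 0.10, adjusted p = 0.00745) that is under the 1.5-fold limit. The clone difference without Dox exceeded that with Dox by -1.41 (SE 0.15, adjusted p = 6.4e-07). Against Chek1_R and Ppp2r1b_R without Dox, which share its array set, Ppm1g was lower by a log2 difference of -1.22 (SE 0.09, adjusted p = 8.6e-11).

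**Figure D1:**
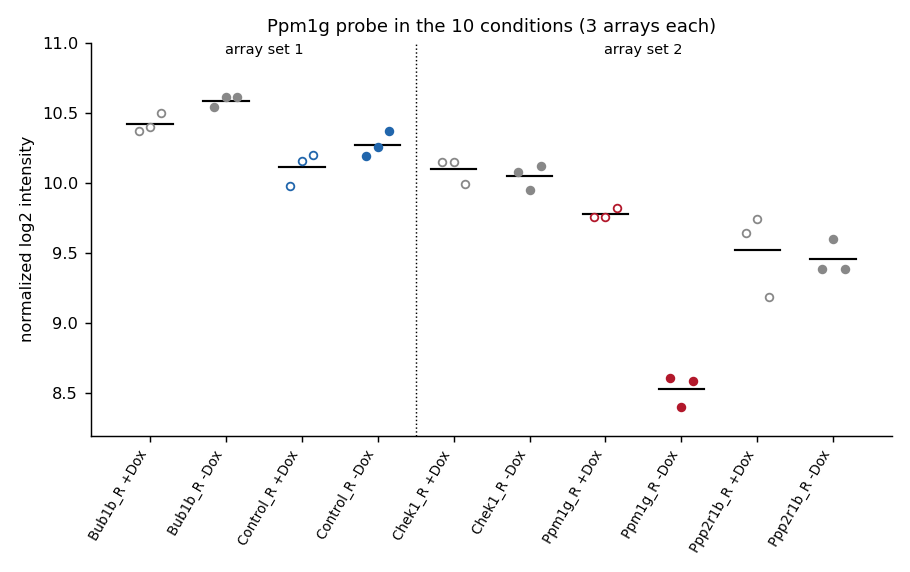
Normalized log2 intensity of the Ppm1g probe (y axis) in the 10 conditions (x axis), 1 point per array and a bar at the mean of 3. Filled points are without Dox and open points with Dox, red is Ppm1g_R and blue Control_R, and the dotted line separates the array sets. The 3 arrays of Ppm1g_R without Dox, between 8.40 and 8.61, are below the other 27 arrays.

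The clones differed at many probes. A probe or gene is called here at an adjusted p under 0.05 in limma and at least a 1.5-fold difference. Without Dox 5077 of 15151 tested probes (33.5%) were called, 2526 of them higher and 2551 lower in Ppm1g_R. With 1 probe per gene, the brightest, 1887 of 11163 genes were higher (16.9%) and 1849 lower (16.6%). The median difference over these genes was 0.01. With Dox, 4410 probes (29.1%) were called between the same clones, and 1642 genes were higher (14.7%) and 1576 lower (14.1%). The comparisons with and without Dox share no array. Of the probes called, 3407 were called in both in the same direction, which is 67.1% of those without Dox and 77.3% of those with Dox, and 2 were called in opposite directions. The difference of differences, without Dox minus with Dox, was called for 320 genes above 0 (2.87%) and 301 below (2.7%). Of the probes called there, 51.8% were above 0, and 36.2% when arrays were scaled by their medians in place of quantiles. It compares arrays within each set. Against the mean of Chek1_R and Ppp2r1b_R without Dox, 563 genes were higher (5.04%) and 642 lower (5.75%) in Ppm1g_R. Of the probes called there 47.5% were higher, and 57.3% under the median scaling. Both of these comparisons use the same 3 arrays of Ppm1g_R without Dox, so their values stand side by side and are not independent. These shares are the background for every list below. The lists were tested member by member. A member enters only if it was detected on at least 3 of the 30 arrays, whatever their condition, so the lists' counts and medians are descriptions.

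**Figure D2:**
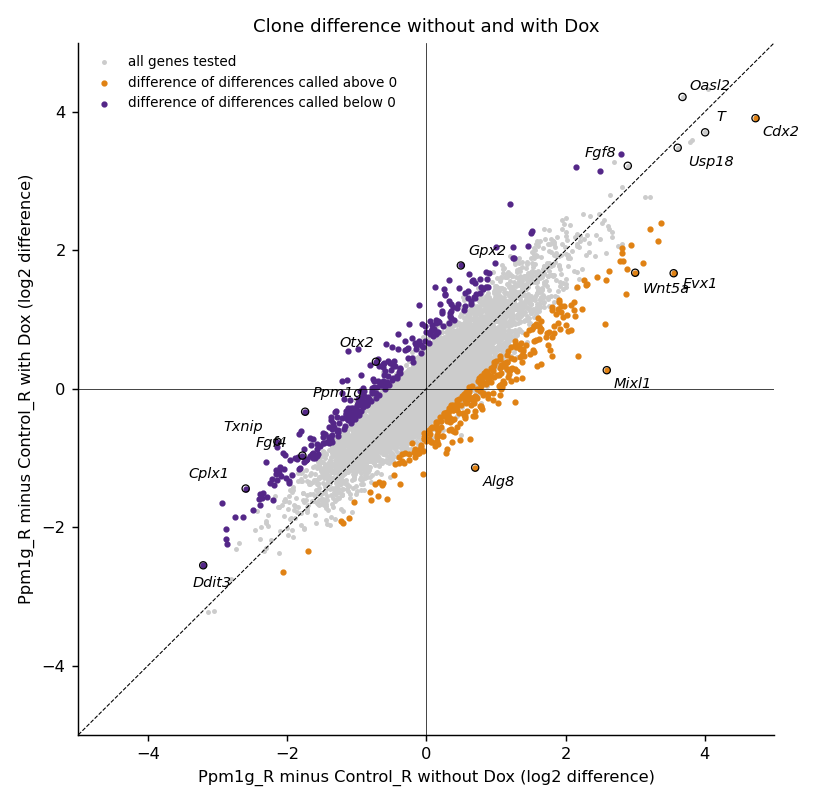
Log2 difference Ppm1g_R minus Control_R without Dox (x axis) against the same with Dox (y axis) for 11163 genes, with the line of equal differences dashed. Coloured points are the 320 genes (orange) and 301 genes (purple) whose difference of differences was called. T and Oasl2 lie near the line, whereas Mixl1 and Ppm1g lie far from it.

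For each gene the 30 arrays also show how far it moves with the array set. For 457 of the 3736 genes called without Dox (12.2%) the 12 arrays of one set and the 18 of the other did not overlap, for 21.1% of those called higher in Ppm1g_R and 3.19% of those called lower. The sets can separate only where the arrays of the compared clones do, so these shares are descriptions and are not to be read against genes not called. The part of the array set in these differences was not tested. Genes of this kind are named as such below.

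Genes of the primitive streak and mesoderm were higher in the depleted clone. Of 34 listed, 26 were tested; 16 were called higher and 0 lower, with a median difference of 1.06. T, the streak's defining transcription factor, read 10.47, 10.41 and 10.34 in Ppm1g_R and 6.46, 6.40 and 6.35 in Control_R, a difference of 4.005 (SE 0.11, adjusted p = 6.7e-19). Cdx2, a homeobox factor of the posterior embryo and of trophoblast, read 10.58, 10.50 and 10.43 against 5.76, 6.03 and 5.54, a difference of 4.73 (SE 0.15, adjusted p = 6.4e-18). The groups were far apart for both genes. Sp5, a target of canonical Wnt signalling, differed by 3.79 (SE 0.10), Evx1 by 3.55 (SE 0.14) and the homeobox gene Msx1 by 3.32 (SE 0.21). The ligands Fgf8 and Wnt3 differed by 2.89 and 2.46, and Axin2, the feedback inhibitor of Wnt signalling, by 1.93. Lefty2, a secreted inhibitor of Nodal, differed by 1.69, while Nodal itself (0.47) and Lefty1 (-0.02) were not called.

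Much of this was present with Dox, and part was not. With Dox 10 members were called higher and 1, Pdgfra, lower, with a median of 0.23. T differed by 3.70 with Dox, and the difference of differences was 0.30 (SE 0.15, adjusted p = 0.226). Sp5 differed by 3.57 with Dox, with a difference of differences of 0.22 (adjusted p = 0.332). Mixl1, a homeobox factor of the streak, behaved otherwise. It read 7.53, 7.40 and 7.20 in Ppm1g_R without Dox, was detected on none of the 9 other arrays of both clones, and was at least 3.92-fold higher than in Control_R without Dox (means 7.38 and 4.78, adjusted p = 6.2e-16). Within Ppm1g_R it was at least 3.42-fold higher without Dox than with Dox (adjusted p = 3.2e-13). The fitted difference of differences was called (adjusted p = 1.1e-09), but with 3 of the 4 conditions not detected its size is not measured. Evx1 had a difference of differences of 1.88, Msx1 with 1.19, Cdx1 with 1.15 and Isl1 with 1.06. In all, the difference of differences was called above 0 for 14 of the 26 members and below 0 for none, with a median of 0.765. These 14 included Eomes (0.95), Mesp1 (0.80), Snai1 (0.84), Lhx1 (0.86) and Wnt3a (0.97). Eomes, Mesp1, Lhx1 and Isl1 were not detected in at least 1 of the conditions compared, so their values are fitted against background.

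**Figure D3:**
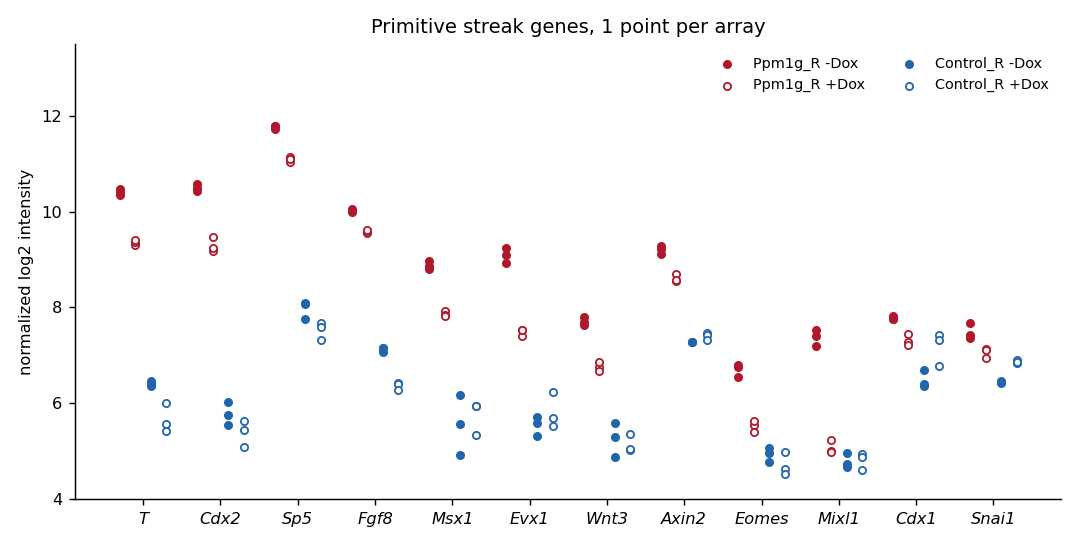
Normalized log2 intensity (y axis) of 12 primitive streak genes (x axis) on the arrays of both clones, 1 point per array, red for Ppm1g_R, blue for Control_R, filled without Dox and open with Dox. Levels are to be compared within a gene. T, Cdx2, Sp5 and Fgf8 are high in Ppm1g_R with and without Dox, and Mixl1 only without Dox.

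T was also high in the other depleted clones without Dox, while part of the list differed from Chek1_R and Ppp2r1b_R. T averaged 10.41 in Ppm1g_R without Dox, between Chek1_R (10.85) and Ppp2r1b_R (9.81), with no overlap between the arrays of these clones. Ppm1g_R differed from the mean of Chek1_R and Ppp2r1b_R by 0.08 (SE 0.09, adjusted p = 0.552). As that mean lies between clones on either side, this does not test Ppm1g_R against each of them. T averaged 11.72 in Bub1b_R without Dox, on arrays of Control_R's own set. None of the 16 streak genes called had array sets that did not overlap. Against Chek1_R and Ppp2r1b_R, 7 of the 26 members were called higher (26.9%, against 5.04% of all genes tested). Among them were Msx1 (1.43), Mixl1 (1.16), Cdx2 (0.96) and Evx1 (0.71). These too are differences from the mean of both clones. Evx1 averaged 9.09 in Ppm1g_R without Dox, below Chek1_R (9.49) and above Ppp2r1b_R (7.26). Cdx2, at 10.50, was above both (9.91 and 9.18). Called lower were 2 (7.69%, against 5.75%), Fgf8 (-1.06) and Pdgfra (-0.80). Mixl1 averaged 7.38 in Ppm1g_R, 7.46 in Chek1_R and 8.72 in Bub1b_R without Dox and was not detected in Ppp2r1b_R.

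The pluripotency factors differed in both directions, and for some genes the probes disagreed. Pou5f1, the central factor of the network, read 12.20, 11.85 and 12.08 against 12.62, 12.55 and 12.51, a difference of -0.52 (SE 0.09, adjusted p = 1.6e-05) that is under the 1.5-fold limit; its other probe gave -0.71 and was called. Nanog was higher by 0.48 and Esrrb lower by -0.36, neither called. Tcl1 gave -0.14 on its brightest probe, which was not called, and its other probe gave -0.87 and was called lower. Sox2 gave -0.51 on its brightest probe, and another probe gave 1.08 and was called higher. Of 15 tested genes of naive pluripotency, 5 were higher and 1 lower, with a median of -0.03. Those higher were Gbx2 (1.04), Klf4 (0.89), Zfp42 (0.70), Dppa3 (0.65) and Tbx3 (0.61). On withdrawal Control_R itself changed by -0.60 for Gbx2, which was called, and by -0.57 for Tbx3, which was not. Ppm1g_R changed by 0.40 and -0.13, neither called. Other probes of Klf4 and Tbx3 were not called.

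Fgf4, the ESC's own FGF ligand, was the member called lower. It read 7.54, 7.44 and 7.48 in Ppm1g_R and 9.25, 9.27 and 9.28 in Control_R, a difference of -1.78 (SE 0.10, adjusted p = 8.6e-14). With Dox the difference was -0.97, and the difference of differences was -0.82 (SE 0.13, adjusted p = 2.2e-04). Fgf4 without Dox averaged 7.02 in Chek1_R, 7.20 in Ppp2r1b_R and 7.06 in Bub1b_R, so the 4 depleted clones all read below the 9.27 of Control_R. Against the mean of Chek1_R and Ppp2r1b_R, 7 of 15 naive genes were called higher in Ppm1g_R (46.7%, against 5.04% of all genes tested). Called lower were 0, and the median was 0.49. Tbx3 (1.31) and Zfp42 (1.10) led. This does not place Ppm1g_R above each clone. Gbx2, called higher, averaged 10.9 in Ppm1g_R, 11.10 in Chek1_R and 8.97 in Ppp2r1b_R. Klf4, also called, averaged 9.83, 9.79 and 8.59.

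Of 10 tested genes of the core network, 3 were called higher and 1 lower. The RNA-binding L1td1 was higher by 2.06, the RNA-binding Lin28 by 1.26 and the Nodal co-receptor Tdgf1 by 0.85, and Utf1 was lower by -0.61. Another probe of Lin28 gave -0.17 and was not called. For Lin28 and Tdgf1 the array sets did not overlap. Of 12 tested genes of the formative and primed epiblast, 6 were higher and 2 lower, with a median of 0.70, and with Dox 9 were higher and 1 lower. Fgf5 was detected on 3 of 3 arrays of Ppm1g_R (6.83, 6.50 and 6.89) and on 0 of 3 of Control_R (4.98, 4.73 and 4.65) and was at least 2.53-fold higher (adjusted p = 8.0e-12). With Dox it was also called higher, by at least 1.81-fold. Its difference of differences (0.43, adjusted p = 0.153) and its change on withdrawal within Ppm1g_R (0.36) were not called. Against the mean of Chek1_R and Ppp2r1b_R without Dox it was called lower (-0.996). Otx2, an epiblast and anterior homeobox factor, differed in direction with Dox. It was lower by -0.72 without Dox and higher by 0.39 with Dox, the latter under 1.5-fold, with a difference of differences of -1.12 (SE 0.10, adjusted p = 7.3e-08).

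Other lineages were mixed. Of 14 tested genes of trophoblast and simple epithelium, 9 were higher and 1, Ascl2 (-0.88), lower. The simple-epithelial keratin Krt8 read 13.22, 13.14 and 13.14 against 10.62, 10.69 and 10.70, a difference of 2.50 (SE 0.05, adjusted p = 5.8e-21), and its partner Krt18 differed by 2.04. Gata3, a trophoblast factor, differed by 2.43. Krt8 differed by 2.17 with Dox, and without Dox averaged 12.69 in Bub1b_R, 12.84 in Chek1_R and 13.10 in Ppp2r1b_R, so Control_R was the low clone. Of 19 tested endoderm genes 2 were higher and 6 lower. Amn, a component of the cubilin receptor, was lower by -2.23, Foxq1 by -1.29 and Gata6, a primitive endoderm factor, by -1.06, while the laminin chain gene Lamb1-1 was higher by 1.69, with array sets that did not overlap, and the endocytic adaptor Dab2 by 0.88 on its brightest probe. Of 7 tested neural and ectodermal genes 3 were higher and 0 lower: the chemokine gene Cxcl12 (1.83, with a further probe at 0.47 not called), the intermediate filament gene Nes (1.02) and Tubb3 (0.66). Tubb3 was near background, detected on 2 of 3 arrays of Ppm1g_R and 1 of 3 of Control_R (means 5.71 and 5.05).

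The cells were checked for the cell types they could hold. The 14 tested markers of ESCs averaged 11.61 to 11.67 per array in Ppm1g_R and 11.64 to 11.70 in Control_R. Of 34 listed fibroblast genes, 10 were detected on none of the 6 arrays, and the matrix genes Col1a2, Postn and Lum were among the 9 that did not pass the detection filter. Of the 23 tested, 11 were called higher and 2 lower, and their mean per array was 8.185 to 8.204 in Ppm1g_R and 7.737 to 7.807 in Control_R. Higher were the secreted Cyr61 (1.66, with 1 of its 3 probes not called), Twist2 (at least 2.47-fold), the contractile Tagln (1.64), Timp3 (1.34) and Acta2 (1.19) and the collagen genes Col3a1 (at least 1.53-fold, detected on 2 of 3 arrays), Col5a1 (0.94) and Col1a1 (0.70). Thy1, a surface marker of fibroblasts, was lower by -1.43 and the matrix protease gene Mmp2 by -1.01. The difference of differences was called above 0 for 6, among them Tagln (1.29), Acta2 (0.93) and Col1a1 (1.03), and below 0 for Thy1 (-0.66). The part of carried-over fibroblasts in these values was not tested.

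**Figure D4:**
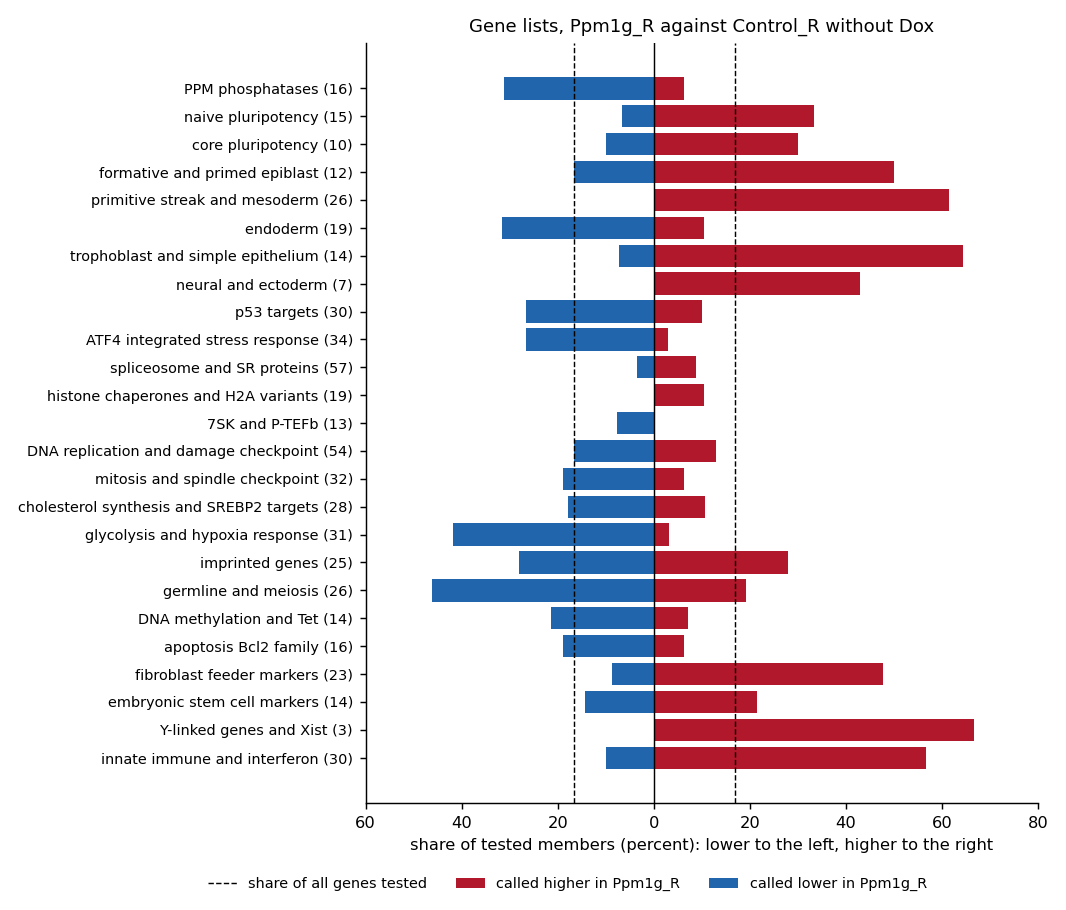
Share of tested members called higher (red, right) or lower (blue, left) in Ppm1g_R against Control_R without Dox for 25 gene lists, with the number of tested members in brackets. The dashed lines mark the shares among all genes tested, 16.9% higher and 16.6% lower. The streak, trophoblast and interferon lists reach farthest beyond the line on the right, setting aside the 3 Y-linked genes, and the germline and glycolysis lists on the left.

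Of 34 tested genes of the ATF4 stress response, 1 was higher and 9 were lower in the depleted clone and 24 were not called, with a median of -0.28. Ddit3 (CHOP), a pro-apoptotic transcription factor of that response, read 7.68, 7.29 and 7.51 in Ppm1g_R and 10.58, 10.85 and 10.67 in Control_R, a difference of -3.21 (SE 0.13, adjusted p = 6.4e-16), and its other probe gave -2.33. Nupr1, a stress-induced chromatin protein, differed by -1.88 (SE 0.09), Trib3, an inhibitory pseudokinase, by -1.39 and Herpud1, of ER-associated degradation, by -1.12. Fgf21 was not detected on the Ppm1g_R arrays and was at least 1.97-fold lower (means 5.15 and 6.62). With Dox 10 were lower and 1 higher, with Ddit3 at -2.55 and Nupr1 at -1.87. Ddit3 averaged 8.92 in Bub1b_R without Dox, on arrays of Control_R's set, against 10.70 in Control_R. The difference of differences was called above 0 for Chac1 (0.86), Atf5 (0.75), Sesn2 (0.78) and Atf3 (0.64) and below 0 for Ddit3 (-0.66).

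Of 30 tested p53 targets 3 were higher and 8 lower, with a median of -0.25. With Dox the balance was similar, with 1 higher and 8 lower and a median of -0.24. The difference of differences was called above 0 for 2, Sesn2 (0.78) and Rprm (0.62), and below 0 for 0. Gdf15, a secreted stress cytokine, read 5.96, 6.22 and 6.32 against 8.44, 8.44 and 8.46, a difference of -2.28 (SE 0.15, adjusted p = 2.8e-12). Ddb2, a damage sensor of nucleotide excision repair, was lower by -1.23 and the death receptor Fas by -0.98. Sfn, which encodes 14-3-3 sigma, was higher by 2.26, Plk2 by 0.77 and Rprm by 0.65. For Plk2 the array sets did not overlap. With Dox Gdf15 differed by -1.83, Ddb2 by -0.68, Fas by -0.695 and Sfn by 2.17, all called. Plk2 (0.29) and Rprm (0.03) were not called with Dox. Cdkn1a (-0.17), Mdm2 (-0.28) and Bax (-0.29), which are common readouts of p53, were not called. Of 16 tested genes of the Bcl2 family, 1 was higher, Bok (0.78), and 3 were lower, the BH3-only genes Pmaip1 (-0.89), Bmf (-0.86) and Bbc3 (-0.64). Other probes of Bok, Pmaip1 and Bbc3 were not called. Gdf15 was 6.23 in Bub1b_R, 5.71 in Chek1_R and 6.38 in Ppp2r1b_R without Dox, against 8.45 in Control_R.

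Interferon-responsive and innate immune genes were higher than in the control clone with and without Dox. Of 30 tested, 17 were higher and 3 lower without Dox, with a median of 0.74, and 14 higher and 3 lower with Dox. Oasl2, an antiviral protein of the OAS family, read 9.73, 9.71 and 9.65 against 6.10, 5.57 and 6.37, a difference of 3.68 (SE 0.15, adjusted p = 4.9e-16). Usp18, which removes ISG15 from proteins and dampens interferon signalling, was detected on no Control_R array and was at least 9.68-fold higher (means 8.68 and 5.07, adjusted p = 5.1e-17). The transcription factor Irf1 differed by 1.5 (SE 0.05) and Ifitm1 by 1.52 on its brightest probe. Another probe of Ifitm1 gave -0.81 and was called lower, and its brightest probe had array sets that did not overlap. Lower were the adhesion receptor Icam1 (-1.38), the peptide transporter Tap1 (-0.87) and Stat2 (-0.62).

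For these genes the difference of differences was called above 0 for Cxcl1 (0.81) and below 0 for Ifitm1 (-0.76), Stat2 (-0.73) and Ifitm3 (-0.67). Against Chek1_R and Ppp2r1b_R without Dox, 0 were called higher and 8 lower, among them Usp18 (-0.91), Oasl2 (-0.83), Ifit3 (-0.81) and B2m (-0.78). Oasl2 averaged 10.84 in Chek1_R, 10.21 in Ppp2r1b_R and 9.05 in Bub1b_R without Dox, and Control_R, at 6.01, was the low clone here too. Of the members with a RefSeq promoter (250 bases before to 50 after the start, GRCm38.p6), the interferon response element GAAANNGAAA, on either strand, lay in 5 of 14 called higher, 1 of 3 called lower and 4 of 8 not called. It lay in the promoters of 3.99% of all 27025 genes with one. A match is a description of these letters only. The windows of B2m (chr2:122147538-122147567, + strand), the light chain of class I MHC, and of Ifit3 (chr19:34583397-34583426, - strand), an antiviral effector, are shown as examples, with the element in capitals.
B2m: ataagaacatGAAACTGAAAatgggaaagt
Ifit3: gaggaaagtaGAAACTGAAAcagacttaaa

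**Figure D5:**
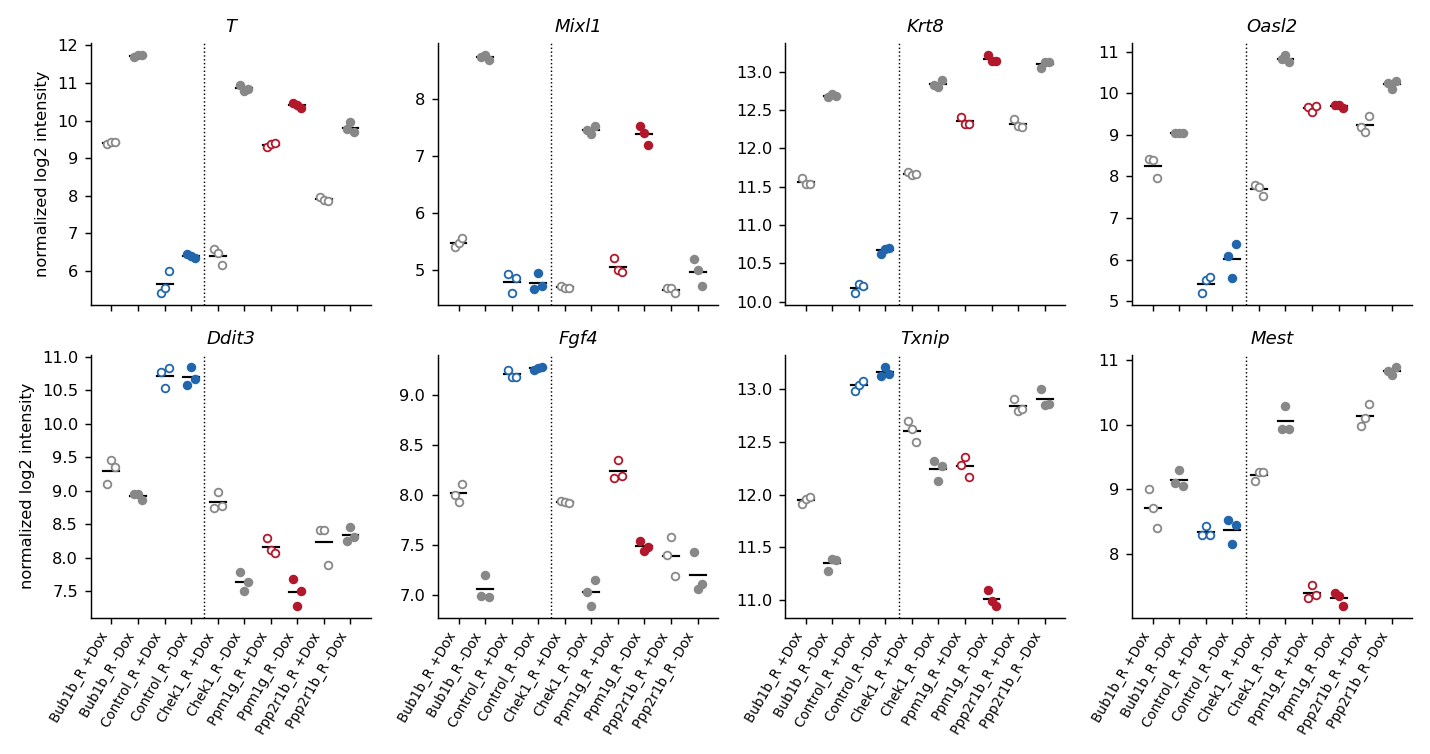
Normalized log2 intensity (y axes) of 8 genes in the 10 conditions (x axes), 1 point per array and a bar at the mean of 3, with colours, fills and the dotted line between array sets as for Ppm1g. Control_R is the lowest clone for Krt8 and Oasl2 and the highest for Ddit3 and Fgf4, while Ppm1g_R without Dox is lowest for Txnip and Ppm1g_R with or without Dox for Mest.

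Few genes of the processes PPM1G is known to act on were called. Of 57 tested genes of the spliceosome and SR proteins, 5 were higher and 2 lower, with a median of 0.12. The hnRNP genes Hnrpu (1.07) and Hnrpm (0.74) and the SR protein gene Sfrs3 (0.79) were higher, and the splicing kinases Clk3 (-1.06) and Srpk2 (-0.69) were lower. Hnrpu was near background in Control_R, at 5.44, 5.59 and 5.55 without Dox and detected on 0 of 3 arrays with Dox. The shares, 5 and 2 of 57, are below those of all genes. Of 19 tested histone chaperones and H2A variants, 2 were higher, the nucleolar Ncl (1.00) and the chromatin remodeller Atrx (0.64). The H2A variants H2afz (0.47) and H2afx (0.21) were under the limit. Of 13 tested genes of 7SK and P-TEFb, 1 was lower, the P-TEFb inhibitor Hexim2 (-0.80). Cdk9, the P-TEFb kinase, differed by -0.28. Hexim1, the related inhibitor, differed by 0.39 without Dox, and its difference of differences of 0.67 was called (SE 0.17, adjusted p = 0.00913). Among 16 tested PPM phosphatases, Ppm1h was higher, being at least 1.61-fold above a control in which it was not detected, and besides Ppm1g, Ppm1m (-0.84), Ppm1j (-0.80) and Ppm1l (-0.73) were lower. Ppm1e, also called lower, was not detected in Ppm1g_R and on 2 of 3 arrays of Control_R (means 4.82 and 5.42), and its other probe gave 0.01. The difference of differences was called for Ppm1g only.

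Replication and cell cycle genes fell near the background. Of 54 tested genes of replication and the damage checkpoint, 7 were higher and 9 lower, and no difference of differences was called. Pcna, the sliding clamp, read 9.54, 9.82 and 9.59 against 7.89, 7.99 and 8.28, a difference of 1.60 (SE 0.17, adjusted p = 1.9e-08), and the primase gene Prim1 differed by 1.53. Both moved with the array set: Pcna lay between 7.26 and 8.28 on the 12 arrays of Bub1b_R and Control_R and between 9.01 and 9.91 on the other 18. Of the 16 genes called, 6 had array sets that did not overlap, namely Pcna, Prim1, Gmnn, Mcm3, Tk1 and Fancc. Other probes of Tk1 and Fancc were not called. Wee1, the kinase that holds CDK1 inactive, was at least 1.82-fold higher, and the opposing phosphatases Cdc25b (at least 1.67-fold) and Cdc25c (-0.87) were lower. Of 32 tested mitotic genes 2 were higher and 6 lower. Aurkc, the meiotic Aurora kinase, was lower by -1.36, the separase inhibitor Pttg1 by -1.12 and the separase gene Espl1 by -0.81. Plk4 (0.87) and Tpx2 (0.62), which were higher, had array sets that did not overlap.

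Of 31 tested genes of glycolysis and the hypoxia response, 1 was higher and 13 lower, with a median of -0.48, against 2 higher and 5 lower with Dox. The enolase gene Eno2 read 7.94, 7.90 and 7.98 against 9.43, 9.53 and 9.54, a difference of -1.56 (SE 0.08, adjusted p = 4.6e-14). The aldolase gene Aldoc was lower by -1.30 without Dox and by -0.33 with Dox, a difference of differences of -0.97 (SE 0.12, adjusted p = 4.1e-06). Hk1, the hexokinase at the head of the pathway, was lower by -1.10 and the hypoxia target Ndrg1 by -0.93, and their differences of differences were -0.73 and -0.80. The glucose transporter Slc2a1 (0.35) and Ldha (-0.14) were not called. For none of the 14 genes called did the array sets separate. Of 28 tested genes of cholesterol and fatty acid synthesis, 3 were higher and 5 lower without Dox, against 7 higher and 1 lower with Dox. The difference of differences was called below 0 for 4, the cholesterol enzymes Lss (-0.78), Dhcr7 (-0.77) and Mvd (-0.76) and the sterol sensor Insig1 (-0.62), and above 0 for none. Idi1 (1.42), which was higher without Dox, had array sets that did not overlap.

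Imprinted genes, which are expressed from 1 parental allele and can drift in cultured ESCs, differed in both directions. Of 25 tested, 7 were higher and 7 lower. The growth factor gene Igf2 read 14.91, 15.19 and 15.15 against 13.23, 13.15 and 13.10, a difference of 1.92 (SE 0.08, adjusted p = 6.2e-16), and Peg10 differed by 1.68. H19, the neighbour of Igf2, differed by 0.10 (adjusted p = 0.585). Slc22a18 was lower by -2.29 on its brightest probe, while another probe gave 0.28 and was not called. Nnat was lower by at least 2.0-fold and Mest by -1.07. Mest averaged 7.31 without and 7.40 with Dox in Ppm1g_R, and between 8.34 and 10.84 in the other conditions. Of 26 tested genes of the germline and meiosis, 5 were higher and 12 lower, with a median of -0.50. Mov10l1, an RNA helicase of the piRNA pathway, was at least 5.14-fold lower, and Dmrtc2 (-2.12), the cohesin gene Smc1b (-1.84) and the piRNA gene Piwil2 (-1.31) were lower. Nanos3 was higher by 1.28. Of 14 tested genes of DNA methylation and demethylation, Dnmt3b was higher by 0.91, and Apobec1 (-1.85), Gadd45b (-0.77) and Mbd4 (-0.76) were lower. The Y-linked Eif2s3y (1.61) and Ddx3y (0.98) were higher, and their array sets did not overlap.

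Among genes detected on all 6 arrays and moving the same way in 9 of 9 array pairs, the 10 highest were Cdx2, T, Sp5, Oasl2, the Wnt ligand Wnt5a (3.0), Fgf8, the growth factor Tgfb2 (2.83), Igfbp5 (2.81), Hoxc9 (2.81) and D12Ertd647e (2.80). The 10 lowest were Ddit3, the lymphocyte receptor Cd6 (-2.86), the metabolic kinase Pdk4 (-2.64), the synaptic Cplx1 (-2.60), the proton pump subunit Atp12a (-2.39), the ligand Bmp7 (-2.36), Klhdc9 (-2.34), Rpl3l (-2.31), Cbfa2t2 (-2.30) and Ovgp1 (-2.30). Leaving out provisional symbols, 116 genes called were detected on all Ppm1g_R arrays and no Control_R array, and 279 the other way round. The Control_R arrays detect dimmer signals and more probes, as given above, so these counts cannot be told apart from the array set. The largest bounds on the first side were Usp18, the antiviral Samd9l (at least 5.62-fold), the homeobox gene Hoxd10 (at least 5.09-fold), Klhl6 (at least 4.85-fold) and Ccdc80 (at least 4.79-fold). On the other side they were the myosin light chain gene Myl3 (at least 7.44-fold), Bhlhb8 (at least 6.24-fold), Tnfrsf13c (at least 5.44-fold), Rab3il1 (at least 5.21-fold) and Mov10l1.

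The largest differences of differences were partly those of other genes. Among genes detected on all 12 arrays of both clones, the difference of differences was highest for Alg8 (1.84), Scara3 (1.47), Tatdn2 (1.36), Wnt5a (1.32) and Cd248 (1.24). It was lowest for Ppm1g, Txnip (-1.38), Si (-1.31), Fnbp1 (-1.31) and Gpx2 (-1.29). Txnip, an inhibitor of thioredoxin and of glucose uptake, read 11.10, 10.99 and 10.95 in Ppm1g_R without Dox against 13.12, 13.21 and 13.14 in Control_R, a difference of -2.14 (SE 0.07, adjusted p = 9.3e-18), and with Dox the difference was -0.76. Its arrays in Ppm1g_R without Dox were the lowest of the 30. For 2 of these genes the control clone's own change was called: on withdrawal Control_R itself fell by 0.66 for Alg8 and by 0.68 for Tatdn2, against changes of 1.18 and 0.68 in Ppm1g_R. The other probes of Alg8 disagreed in sign, as did those of Fnbp1. Against Chek1_R and Ppp2r1b_R without Dox, Rhox9 (2.43), Aard (2.15) and Msrb2 (2.14) were highest and Mest (-3.14), Chst1 (-2.03) and the metal transporter Slc39a8 (-1.88) lowest among genes detected on all 9 arrays.

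Of the 11163 genes, 10641 were placed on a chromosome through RefSeq, and the median difference per chromosome lay between -0.08 (chromosome 7) and 0.14 (chromosome X), leaving aside the 3 genes of Y. On X, 24.6% of 357 genes were higher and 8.96% lower, against 16.9% and 16.6% of all genes tested, and its median with Dox was 0.18.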

How the data were processed

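RNA of 5 rescue clones, each with and without Dox in 3 replicates, was hybridised as biotin-labelled cRNA to Illumina mouse WG-8 arrays. The authors deposited non-normalized signal intensity and a detection p-value for each of 25697 probes. In 2 columns, 46 and 14 detection p-values had been turned into dates by a spreadsheet and were restored or set to the nearest value. Intensities were background-corrected and quantile-normalized with neqc (offset 16) in limma 3.58.1 under R 4.3.3. A probe was kept where it was detected (p under 0.05) on at least 3 of the 30 arrays, whatever their condition, which left 15151. One limma model over all 10 conditions (20 residual degrees of freedom) gave every difference, with Benjamini-Hochberg adjustment over all probes, and a call needs an adjusted p under 0.05 and 1.5-fold. The fit was tested on simulated data. Each gene was represented by its brightest probe, and 31 symbols that read as dates left some genes out.

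Where a group was detected on no array, the fold is a bound against the lowest detected signal. Named were Ppm1g, 11 pluripotency and streak genes, the 10 highest and lowest differences, the 5 largest bounds per direction, the 5 highest and lowest differences of differences, the 3 highest and lowest against Chek1_R and Ppp2r1b_R, and up to 3 members per direction of each of 25 lists, besides members singled out after their values were seen. The members and lists were chosen with earlier results of these data known. Same-numbered replicates did not deviate together (r of -0.09, -0.07 and 3.7e-05), so no block was used. Alternatives were other offsets, background, scaling and filters, other thresholds, the methods' t-test, the mean of all probes, the 6 arrays alone, a replicate block and each array left out.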

Additional observations from a re-analysis of the deposited data

Results flagged for a closer look

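For 73 of the genes named in the text, the difference between Ppm1g_R and Control_R differed without and with Dox by the interaction term of the model. The values below are log2 differences of differences, without Dox minus with Dox. They hold the change of the control clone too: on withdrawal Control_R changed by -0.60 for Gbx2 and 0.50 for Dab2, against 0.40 and -0.21 in Ppm1g_R. Above 0 were Mixl1 (2.323), Evx1 (1.883), Alg8 (1.841), Scara3 (1.466), Tatdn2 (1.363), Wnt5a (1.324), Samd9l (1.294), Tagln (1.289), Cd248 (1.235), Msx1 (1.193), Cdx1 (1.152), Klhl6 (1.145), Isl1 (1.062), Col1a1 (1.028), Gbx2 (0.998), Tgfb2 (0.986), Wnt3a (0.974), Eomes (0.953), Acta2 (0.933), Pdgfra (0.912), Timp3 (0.886), Lhx1 (0.855), Chac1 (0.855), Snai1 (0.837), Wnt3 (0.834), Cdx2 (0.820), Cxcl1 (0.807), Mesp1 (0.802), Sesn2 (0.783), Igfbp5 (0.779), Atf5 (0.748), Axin2 (0.728), Hexim1 (0.670), Twist2 (0.668), Atf3 (0.640), Rprm (0.617), Ncl (0.607) and Nanos3 (0.588). Below 0 were Ppm1g (-1.410), Txnip (-1.377), Si (-1.314), Fnbp1 (-1.310), Gpx2 (-1.286), Bhlhb8 (-1.284), Cplx1 (-1.154), Otx2 (-1.115), Aldoc (-0.971), Dmrtc2 (-0.951), Atp12a (-0.863), Rab3il1 (-0.859), Tdgf1 (-0.836), Klhdc9 (-0.835), Apobec1 (-0.832), Fgf4 (-0.816), Slc39a8 (-0.811), Ndrg1 (-0.803), Pdk4 (-0.788), Bmp7 (-0.785), Lss (-0.784), Dhcr7 (-0.774), Mvd (-0.764), Ifitm1 (-0.757), Stat2 (-0.731), Hk1 (-0.728), Slc22a18 (-0.721), Dab2 (-0.707), Smc1b (-0.684), Ifitm3 (-0.672), Thy1 (-0.659), Ddit3 (-0.656), Insig1 (-0.623), Cd6 (-0.615) and D12Ertd647e (-0.596). For 15 of them, Mixl1, Klhl6, Samd9l, Bhlhb8, Rab3il1, Nanos3, Twist2, Eomes, Mesp1, Wnt3, Lhx1, Isl1, Pdgfra, Atf3 and Cxcl1, at least 1 of the 4 conditions was detected on no array, so the value is fitted against background and its size is not measured.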

How the results depend on the processing

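No difference given for a gene chosen by the naming rule reversed under any alternative run, but the balance of calls did under median scaling: 2526 higher and 2551 lower became 2608 and 2523 without Dox, the share above 0 of the difference of differences went from 51.8% to 36.2% and that against Chek1_R and Ppp2r1b_R from 47.5% to 57.3%, and with Dox the median went from -0.03 to 0.05. The number of probes called without Dox (5077) was 1941 at 2-fold, 9814 with no fold limit, 1729 with an offset of 200, and 9006 by the methods' t-test unadjusted and 7902 after Benjamini-Hochberg adjustment. With Dox (4410) it was 1655, 9346 and 1400 at 2-fold, no fold limit and an offset of 200. For the difference of differences (799) these were 122, 1821 and 121, with 439 at an offset of 50, and against Chek1_R and Ppp2r1b_R (1557) they were 312, 6598 and 353, with 943 at an offset of 50. A larger offset shrinks differences of dim probes by construction. The share of calls above 0 with Dox, 50.8%, was 60.7% under median scaling and 61.1% at an offset of 200. Leaving out 1 array gave 4892 to 5248 calls without Dox, 4319 to 4607 with Dox, 710 to 873 and 1547 to 1681. With the replicate number as a block, though the numbers do not pair the samples, the counts were 5077, 4412, 794 and 1557. At an offset of 200 the streak list had 10 higher and 0 lower, the interferon list 8 and 1, glycolysis 0 and 8, germline 0 and 8 and ATF4 0 and 5. Of 2649 alternative values for these genes, 84 lost the call, 9 gained it and 0 reversed. Signal near background limits the dim genes, given as bounds.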
